A study of Homo sapiens with 8 samples.

Results

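The regions described here carried the cohesin loader NIPBL in both replicates and the Mediator subunit MED1 in replicate 2 alone. Overlapping peaks of all 6 deposited ChIP-seq peak lists were merged on chromosomes 1 to 22 and X. A merged region was a member if it held a peak of each NIPBL list, a peak of MED1 replicate 2 and no peak of MED1 replicate 1, whatever the SMC1A lists held. This gave 2744 members among 10933 merged regions with both NIPBL lists, and among 92867 merged regions in all. All libraries came from untreated GM12878, an established lymphoblastoid line made from B lymphocytes, with 2 replicates each for NIPBL, SMC1A and MED1. Every library was made from cells fixed with 1% formaldehyde and quenched with glycine, each ChIP list was called against the same pool of 2 whole cell extracts, and no label says that replicates were separate cultures. Positions are 1-based on hg19. Regions carry their position as a name and no sequence is shown, because no hg19 genome or gene models were used here.

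NIPBL opens and loads the cohesin ring onto chromatin and helps it extrude DNA loops. SMC1A is a long coiled-coil subunit of that ring, and in mammalian cells its strongest ChIP-seq peaks usually lie where loop extrusion is halted, most often at bound CTCF. MED1 is a subunit of Mediator, which joins transcription factors at enhancers and promoters to RNA polymerase II, and NIPBL is commonly found with Mediator at such active elements. A peak is a stretch where ChIP fragments outnumber the local control estimate. The fold enrichment of a peak is the authors' ratio of these at the peak's summit, and is used here only to describe and rank peaks within 1 list. Within 1 list a weaker peak may come, among other causes, from fewer cells carrying the protein or from less protein per cell. These cannot be told apart in such bulk samples.

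The 2 MED1 lists differed in length more than those of the other proteins. On the chromosomes used, MED1 replicate 1 held 18131 peaks and replicate 2 held 45046, whereas the NIPBL lists held 21422 and 15357 and the SMC1A lists 56510 and 68228. The longer MED1 list had the lower relative depth, a value taken from the lowest control estimate: 0.755 in replicate 2 against 1.00 in replicate 1. Read counts were not used, so this is not a direct measure of sequencing depth. No list held a peak with a −log10 q under 1.30.

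Members made up 25.1% of the regions with both NIPBL lists (exact 95% interval 24.3 to 25.9). Regions with MED1 in both replicates numbered 7480 (68.4%, 67.5 to 69.3), and those with no MED1 peak numbered 698 (6.38%, 5.93 to 6.86). The reverse pattern, with MED1 replicate 1 and no replicate 2, occurred at 11 regions (0.101%, 0.0502 to 0.180). Where a single MED1 library had a peak, it was thus replicate 2 at nearly all NIPBL regions. The replicate 2 list was also the longer, with 45046 peaks against 18131. The same share over all merged regions was not counted, so this is not shown to be particular to NIPBL regions. These intervals cover counting error only, and neighbouring regions are not independent. The number of members was 1133 when the MED1 replicate 2 list was cut to as many top peaks as replicate 1 and 954 when every list was cut to the length of the shortest. It was 6136 when NIPBL replicate 2 was left out.

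MED1 replicate 2 chose the members, so its strength is given as a description. Its fold enrichment at members ran from 2.19 to 15.4, with a median of 5.03 and quartiles of 4.18 and 6.17. At regions with MED1 in both replicates the median was 9.22 and the quartiles 7.06 and 12.7. The ranges overlapped, but only 39 members (1.42%) lay above the median of the other class and 342 above its lower quartile. Most members were nevertheless far from the calling threshold of replicate 2: the median −log10 q was 11.3, and 49 members (1.79%) lay under 3. The solved pileup at the MED1 replicate 2 summit, in overlapping fragments, had a median of 30 at members (lowest 11) and 63 at regions with MED1 in both.

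The share of regions that lacked MED1 replicate 1 was lower in each successive class of MED1 replicate 2 strength. In 10 classes of about equal number, from the lowest to the highest fold enrichment, members made up 84.0%, 65.8%, 47.1%, 33.1%, 20.1%, 11.6%, 4.59%, 1.17%, 0.489% and 0%. The lowest class reached up to a fold enrichment of 4.37 and the highest began at 15.8. There was no level at which all regions switched from lacking to holding replicate 1. In the lowest class 165 regions did hold replicate 1.

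**Figure D1:**
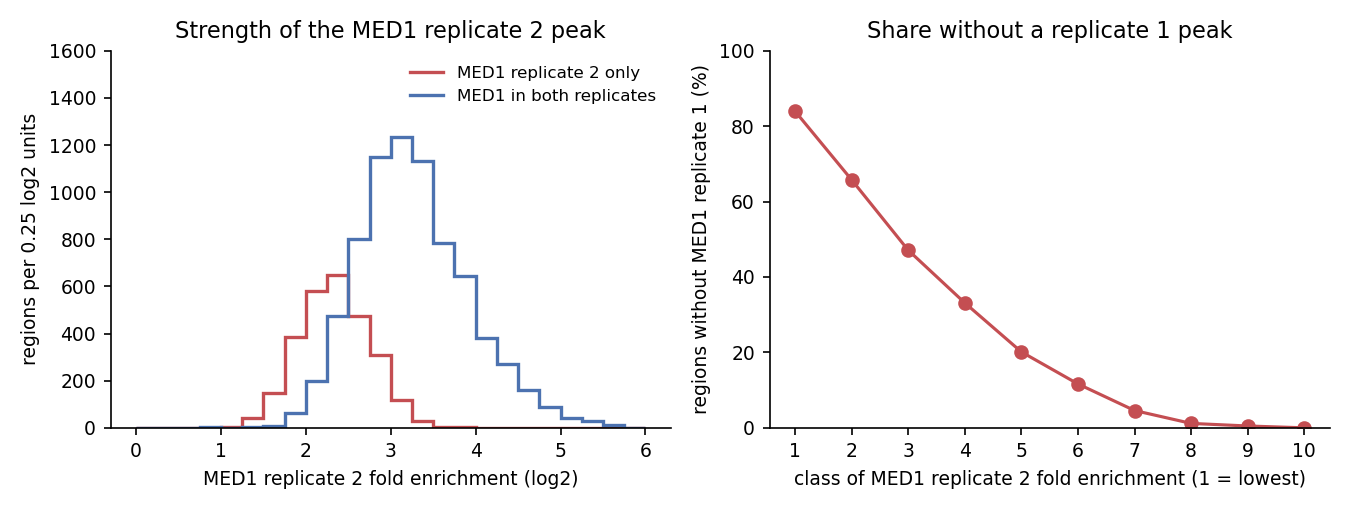
MED1 replicate 2 at regions with both NIPBL lists and a MED1 replicate 2 peak. Left, the number of regions by log2 fold enrichment of the highest MED1 replicate 2 peak, for the 2744 members and the 7480 regions with MED1 in both replicates. Right, the share of regions without a MED1 replicate 1 peak in 10 classes of about equal number by that fold enrichment, falling from 84.0% to 0%.

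NIPBL peaks at members were moderate and spanned a wide range in both libraries. In replicate 1 the highest NIPBL peak of a member had a fold enrichment of 2.08 to 12.3, with a median of 4.12 and quartiles of 3.48 and 4.98. In replicate 2 it ran from 2.22 to 17.7, with a median of 4.05 and quartiles of 3.46 and 4.78. Regions with MED1 in both replicates had medians of 4.60 and 4.47, and their quartile ranges overlapped those of the members in each library. NIPBL also helped to choose the members, so no test was made on these values. Across the 2744 members, NIPBL strength in the 2 replicates went together (Spearman's rho 0.520), whereas NIPBL and MED1 replicate 2 strength did so weakly (0.152 and 0.185). At regions with MED1 in both, all 3 values were higher, at 0.681, 0.365 and 0.417. At members the median percentile of MED1 replicate 2 fold enrichment within its list was 53.9, against 89.0 at regions with MED1 in both. The 2 classes are thus not matched in range. Members share their libraries and control, so these are descriptions across regions.

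**Figure D2:**
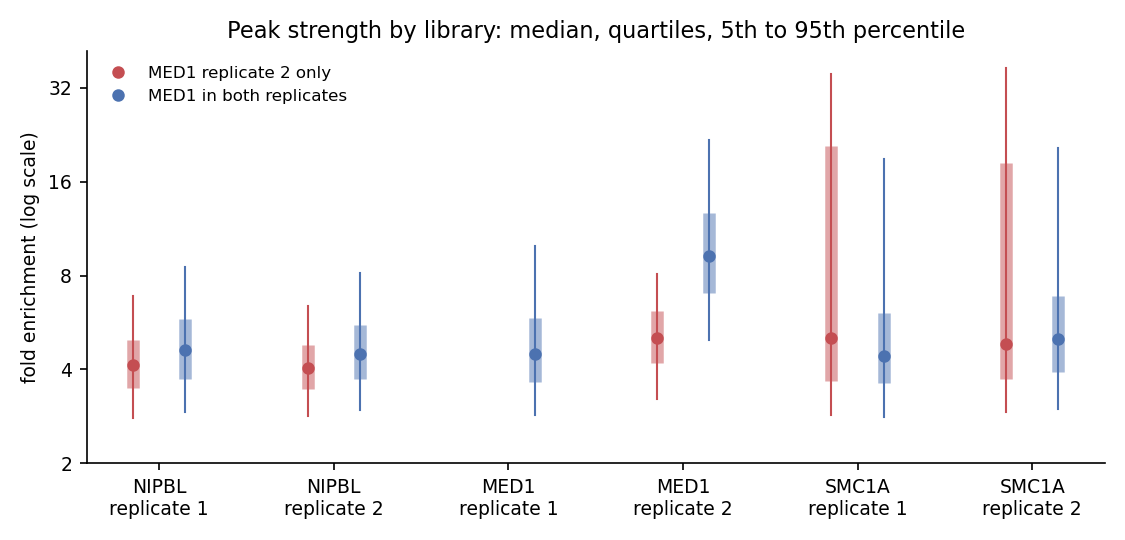
Fold enrichment (log scale) of the highest peak of each region in the 6 libraries, for members and for regions with MED1 in both replicates. Points are medians over regions that hold a peak of that library, thick bars the quartiles and thin lines the 5th to 95th percentile; members have no MED1 replicate 1 peak by their definition, and their SMC1A upper quartiles of 20.9 and 18.4 stand above those of the other class, 6.04 and 6.88.

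Members were narrower than regions with MED1 in both. Their median width was 568 bp (quartiles 434 and 783, range 234 to 3461), against 965 bp for regions with MED1 in both (662 and 1540, up to 20758). Regions with no MED1 peak had a median of 613 bp, so the small width was not particular to members. Of the members, 92.1% (91.0 to 93.1) held exactly 1 peak of each NIPBL list and 1 of MED1 replicate 2. More than 1 NIPBL replicate 1 peak was found at 3.86% of members, against 19.1% of regions with MED1 in both. The MED1 replicate 2 peaks themselves had a median width of 381 bp at members and 839 bp at regions with MED1 in both. The MED1 and SMC1A peaks enter the merged regions, so width is not independent of the rule and was not tested.

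The rule asked nothing of SMC1A, which is the readout that could be compared, although SMC1A peaks took part in the merging and so could join or widen regions. With regions built from NIPBL peaks alone there were 2900 members, and the SMC1A coverage difference given below as -22.1 percentage points was -20.8. It was called in both replicates at 1248 members (45.5%, 43.6 to 47.4), in 1 replicate at 672 (24.5%, 22.9 to 26.1) and in neither at 824 (30.0%, 28.3 to 31.8). Over all 10933 regions with both NIPBL lists these shares were 64.0%, 19.1% and 16.9%, so cohesin was called in both replicates at a smaller share of members than of NIPBL regions as a whole. The regions with MED1 in both had SMC1A in both replicates in 70.8% (69.7 to 71.8) and no SMC1A in 11.1% (10.4 to 11.8). The regions with no MED1 peak had it in both in 64.3% (60.6 to 67.9) and in neither in 27.5% (24.2 to 31.0). Of the 672 members with SMC1A in 1 replicate, 563 held it in replicate 2, the longer SMC1A list.

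**Figure D3:**
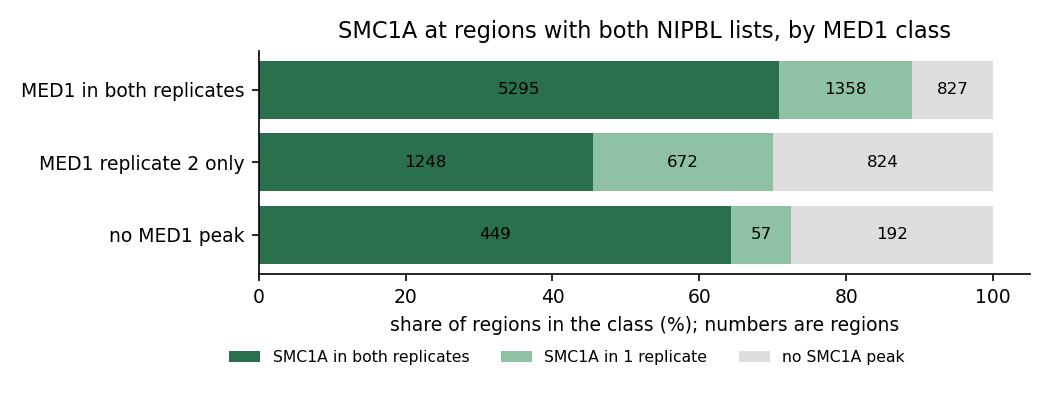
Shares of regions with SMC1A in both replicates, in 1 replicate or in neither, for regions with both NIPBL lists split by MED1. Bars add to 100% in each class and the numbers are regions; members hold SMC1A in both replicates at 1248 regions and lack it at 824.

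Each SMC1A library covered fewer members than regions with MED1 in both. SMC1A replicate 1 had a peak at 49.5% of members (47.6 to 51.3) and 73.1% of the other class (72.1 to 74.1), with 66.7% over all regions with both NIPBL lists. SMC1A replicate 2 had one at 66.0% (64.2 to 67.8) and 86.6% (85.8 to 87.4), with 80.3% over all. The difference averaged -22.1 ± 2.13 percentage points (SD, n = 2 libraries; two-sided exact sign-flip permutation p = 0.5, the smallest that 2 libraries can give). With the other class weighted to the members' MED1 replicate 2 fold enrichment, members minus that class came to -7.13 points, and with it weighted to their widths, which SMC1A peaks help to set, to -10.2 points, in the same direction in both libraries. With every list cut to the length of the shortest the difference turned to 4.07 points and the share of members with SMC1A in both replicates was 10.5%, a setting that keeps only the strong SMC1A peaks.

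The SMC1A peaks at members fell into a weak and a strong group with few between. SMC1A strength is given here as the percentile of fold enrichment within the list, averaged over both lists, for regions with SMC1A in both replicates. Of the 1248 such members, 348 (27.9%, 25.4 to 30.5) lay in the weakest 20% and 283 (22.7%, 20.4 to 25.1) in the next. Only 79 (6.33%, 5.04 to 7.83) lay between the 40th and the 60th percentile and 124 (9.94%, 8.33 to 11.7) between the 60th and the 80th. The strongest 20% then held 414 (33.2%, 30.6 to 35.9). Of all 6994 regions with both NIPBL lists and SMC1A in both replicates, 1084 lay in that strongest class. Both SMC1A libraries ordered the members alike, with a Spearman's rho of 0.916 over 1248 regions. The classes were chosen after the values were seen and serve as a description.

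Among regions with both NIPBL lists, the other MED1 classes held mostly 1 of these groups. With MED1 in both replicates, 334 of 5295 regions (6.31%, 5.668 to 6.997) lay in the strongest 20% of SMC1A, 1616 in the weakest 20% and 2187 in the next. With no MED1 peak, 335 of 449 (74.6%, 70.3 to 78.6) lay in the strongest 20%. Members stood between, at 33.2%. Counted per library over all members, with or without SMC1A, a peak in the strongest 20% of its list was held by 396 members in SMC1A replicate 1 (14.4%, 13.1 to 15.8) and 445 in replicate 2 (16.2%, 14.9 to 17.7). At regions with MED1 in both the shares were 4.05% (3.62 to 4.52) and 5.12% (4.63 to 5.64). The difference averaged 10.7 ± 0.506 points (SD, n = 2 libraries) and was not tested, since the cut was set after the values were seen. It was 10.2 points with the other class weighted to the members' MED1 replicate 2 fold enrichment and 13.4 when weighted to their widths. It was 5.38 with MED1 replicate 2 cut to the length of replicate 1, 4.09 with every list cut to the shortest and 6.47 without NIPBL replicate 2.

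**Figure D4:**
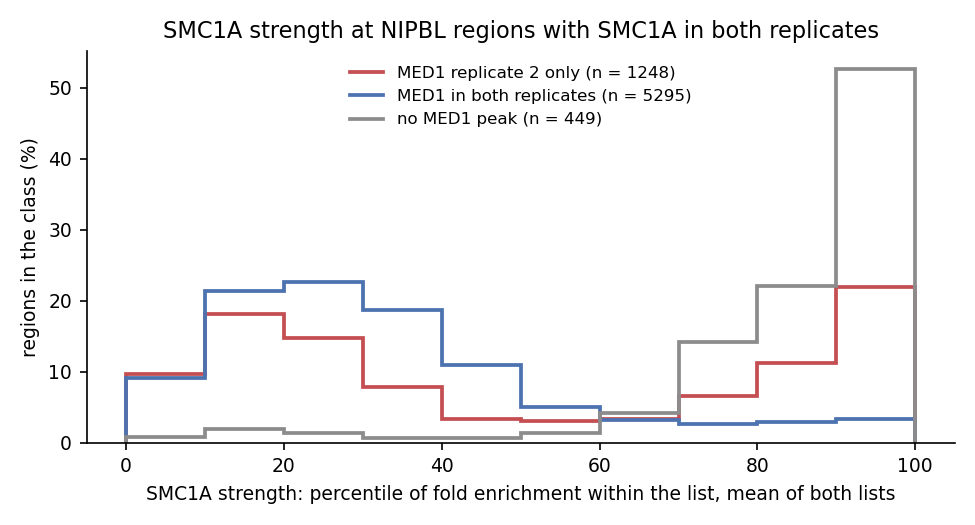
SMC1A strength at NIPBL regions with SMC1A in both replicates, as the percentile of fold enrichment within the list (mean of both lists), in steps of 10 percentile points. Each line gives the share of its own class; members have a weak group and a strong group, regions with MED1 in both replicates mostly the weak one and regions with no MED1 peak mostly the strong one.

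Because of these groups the median was a poor guide to SMC1A at members. Over members with a peak of the library, the median SMC1A fold enrichment was 5.04 in replicate 1 (n = 1357, quartiles 3.68 and 20.9) and 4.83 in replicate 2 (n = 1811, 3.72 and 18.4). At regions with MED1 in both it was 4.43 (3.62 and 6.04) and 5.02 (3.93 and 6.88). The members' median was higher by 0.61 in replicate 1 and lower in replicate 2, with a mean difference of 0.210 ± 0.570 (SD, n = 2; two-sided exact sign-flip permutation p = 1). With the other class weighted to the members' MED1 replicate 2 fold enrichment the mean difference was 0.918, positive in both libraries. The upper quartiles, in contrast, stood above those of the other class in both libraries.

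The share of members with strong SMC1A was highest where MED1 was weakest. Of the 865 members in the lowest of the 10 classes of MED1 replicate 2 strength, 206 (23.8%) were in the strongest 20% of SMC1A. Members of that class with an SMC1A replicate 1 peak had a median SMC1A fold enrichment of 15.7 (n = 442, quartiles 3.95 and 24.2). For SMC1A replicate 2 that median was lower, 7.499 (n = 533, quartiles 3.73 and 25.3). In the second class the share was 12.1% and the medians 4.91 and 4.57, and in the sixth 7.56%, 4.32 and 5.18. The 165 regions with MED1 in both in that lowest class had a share of 6.67% and medians of 3.62 and 3.90. Over members with a peak of the library, Spearman's rho of MED1 replicate 2 with SMC1A was weak. It was -0.202 for SMC1A replicate 1 and -0.0996 for replicate 2. From the side of SMC1A, the members' median MED1 replicate 2 fold enrichment was 5.19 in the weakest 20%, 5.75 and 5.91 in the next classes, 4.61 between the 60th and the 80th percentile and 4.38 in the strongest. NIPBL was highest in the strongest class, where MED1 replicate 2 was lowest. From the weakest to the strongest class, NIPBL medians were 3.96, 4.21, 3.96, 4.02 and 4.49 in replicate 1. In replicate 2 they were 3.91, 4.19, 4.07, 3.92 and 4.57. Median region width was 899 bp in the strongest class of SMC1A and 584.5 bp in the weakest, but SMC1A peaks are part of the merged width.

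MED1 in replicate 2 alone was also found at strong SMC1A regions that lacked NIPBL, though at a smaller share of them. In the strongest 20% of SMC1A, 414 of 1084 regions with both NIPBL lists were members (38.2%, 35.3 to 41.2). With NIPBL in 1 replicate, MED1 replicate 2 alone was present at 330 of 1068 (30.9%, 28.1 to 33.8), and with no NIPBL peak at 974 of 10052 (9.69%, 9.12 to 10.3). Its median fold enrichment was 4.38, 4.34 and 4.06 in these 3 sets. The weak and strong groups of SMC1A were not particular to members. With NIPBL in 1 replicate and MED1 replicate 2 alone, 409 regions lay in the weakest 20% of SMC1A and 305 in the next. Between the 40th and the 60th percentile there were 130, between the 60th and the 80th 155, and in the strongest 20% the 330 given above.

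Summits lay close together at members, and the distances between them differed with SMC1A strength. Over all members the summits of NIPBL replicate 1 and MED1 replicate 2 were a median of 53 bp apart (quartiles 23 and 109), little more than the 46 bp between the NIPBL replicates. At regions with MED1 in both these medians were 46.5 and 47 bp, so the closeness was not particular to members. Merging also limits how far apart the summits of a region can lie. At the 824 members with no SMC1A peak, MED1 replicate 2 lay a median of 46 bp from NIPBL replicate 1 and 46.5 bp from NIPBL replicate 2, within 50 bp in 53.4% and 52.9%. Where SMC1A was among the weakest 20%, MED1 replicate 2 lay within 50 bp of the SMC1A replicate 2 summit in 52.6% of members and within 50 bp of NIPBL replicate 1 in 52.0%. Median distances from the SMC1A replicate 2 summit in that class were 48 bp for MED1 replicate 2 and 65 bp for NIPBL replicate 1. From the SMC1A replicate 1 summit they were 63.5 and 76 bp, and the SMC1A replicates were 70 bp from each other.

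At members with the strongest SMC1A, MED1 replicate 2 sat nearer to SMC1A than NIPBL did. Its summit lay a median of 37 bp from that of SMC1A in either SMC1A replicate, and within 50 bp in 60.9% and 64.3% of the 414 regions. NIPBL replicate 1 lay a median of 102 bp from SMC1A in either replicate, with 12.8% and 11.8% within 50 bp. NIPBL replicate 2 lay 88.5 and 87.5 bp away, with 19.6% and 19.3% within 50 bp. The NIPBL summits were a median of 46 bp from each other and 88 and 75 bp from MED1 replicate 2. In this class the SMC1A replicates themselves were a median of 10 bp apart. The 334 regions with MED1 in both replicates and the strongest SMC1A had MED1 replicate 2 a median of 79.5 and 78 bp from SMC1A, within 50 bp in 38.0% and 36.8%, and MED1 replicate 1 a median of 108 and 106 bp away. Those regions were wider, with a median of 1407.5 bp against 899 bp for the 414 members. Distances join the highest peak of each list in a merged region, so the 2 classes are not matched in width. The 335 regions with no MED1 peak showed NIPBL replicate 1 at 100 and 101 bp from SMC1A, close to the distance at members. Whether these distances are larger than the spread between cultures was not tested.

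**Figure D5:**
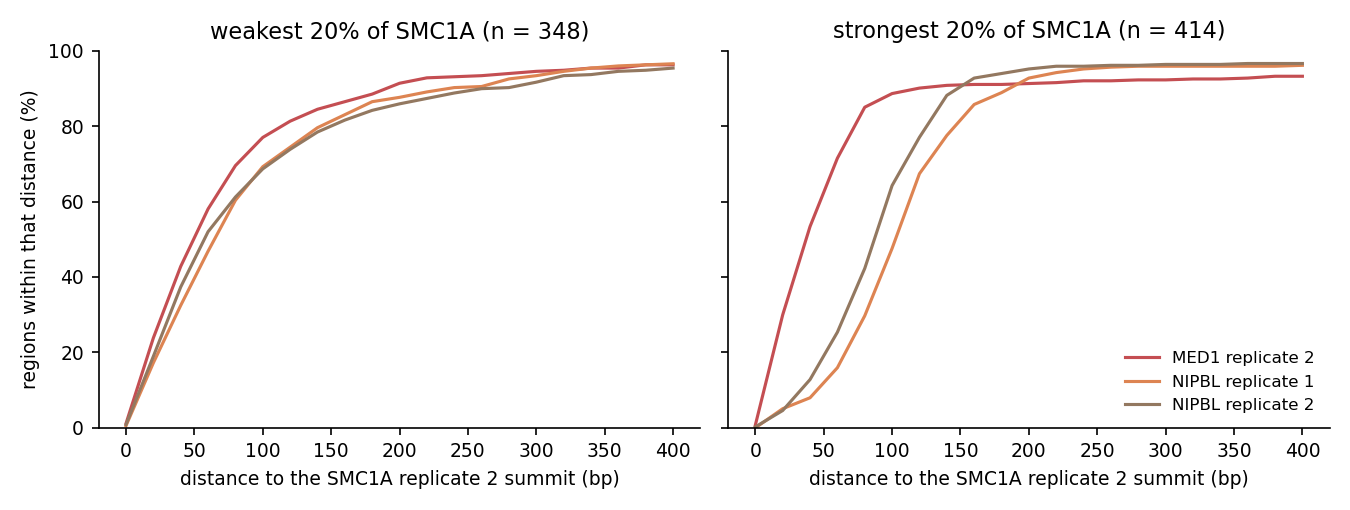
Distance in bp of the MED1 replicate 2 and NIPBL summits from the SMC1A replicate 2 summit, as the share of members within each distance. Left, the 348 members in the weakest 20% of SMC1A, where MED1 replicate 2 is within 50 bp in 52.6% and NIPBL replicate 1 in 39.1%; right, the 414 in the strongest 20%, where MED1 replicate 2 is within 50 bp in 64.3% and NIPBL replicate 1 in 11.8%.

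Among members with SMC1A in both replicates, the strongest NIPBL regions already contained both kinds. The first, chr6:137592048-137593384 (1337 bp), had NIPBL at 11.5-fold in replicate 1 and 9.47-fold in replicate 2, MED1 replicate 2 at 4.35-fold and SMC1A at 30.3 and 31.2-fold. It is a strong SMC1A site, with the MED1 summit 37 bp from that of SMC1A replicate 2 and 171 bp from that of NIPBL replicate 1. The second, chr1:31341925-31342297 (373 bp), had NIPBL of 9.16 and 12.2 and MED1 replicate 2 of 9.14, while SMC1A was weak at 4.52 and 3.81. Here the summits of NIPBL replicate 1, MED1 replicate 2 and SMC1A replicate 2 lay at most 54 bp apart, and the nearest MED1 replicate 1 peak was 103041 bp away. The third, chr17:75277070-75277782, had the highest NIPBL replicate 2 value of any member, 17.7, beside 8.62 in replicate 1, MED1 replicate 2 of 4.62 and SMC1A of 12.3 and 16.5. The fourth, chr15:76867641-76868275, had NIPBL of 10.2 and 9.23, MED1 replicate 2 of 4.50 and SMC1A of 3.73 and 3.77. The fifth, chr20:46012428-46013435, paired the lowest MED1 replicate 2 value of the 6, 2.95, with strong SMC1A of 28.5 and 29.1. The sixth, chr3:61344072-61344538, had MED1 replicate 2 of 8.71 with SMC1A of 4.73 and 6.02, and its MED1 summit lay 2 bp from that of NIPBL replicate 1.

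Members with no SMC1A peak included strong NIPBL peaks too. At chr9:99003578-99004095 (518 bp) NIPBL was 12.3 and 10.1 and MED1 replicate 2 was 10.4 (−log10 q 24.9), with no MED1 replicate 1 peak within 175449 bp. At chr8:144679270-144679872 NIPBL was 11.96 and 9.63 and MED1 replicate 2 was 8.63, with summits 13 bp apart for NIPBL replicate 1 and MED1. Both regions thus carried a clear MED1 peak in 1 library. The next 4 lay at chr19:45909305-45910077, chr17:45972893-45973827, chr2:17699647-17700006 and chr1:21005165-21005488. Their NIPBL ran from 7.47 to 12.2 and their MED1 replicate 2 from 3.23 to 6.85.

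The members with the strongest MED1 replicate 2 were 391 to 1039 bp wide, and their SMC1A fold enrichment, where called, was between 3.08 and 8.76. The highest, chr12:131464310-131464804 (495 bp), had MED1 replicate 2 of 15.4 from a pileup of 58 fragments, NIPBL of 5.63 and 5.64 and SMC1A of 5.49 and 8.76, and a MED1 replicate 1 peak lay 8748 bp away. The second, chr8:39818577-39819067, had MED1 replicate 2 of 13.5 and NIPBL of 7.90 and 8.04. It held SMC1A in replicate 2 alone, at 6.35, and so did the third, chr16:9226325-9227224, at 5.96. The fourth and the fifth, chr2:114681164-114681554 and chr19:13318623-13319661, had MED1 replicate 2 of 12.3 in each.

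The 5 members highest in SMC1A had MED1 replicate 2 of 5.06 to 8.83, unlike the 414 members in the strongest 20% of SMC1A, whose median was 4.38. At chr15:78487560-78488622 SMC1A reached 67.7 and 74.4, with MED1 replicate 2 of 5.06 from a pileup of 16 fragments and NIPBL of 4.33 and 5.05. The MED1 summit there lay 1 bp from that of SMC1A replicate 2 and 126 bp from that of NIPBL replicate 1. At chr11:68064126-68066025 SMC1A was 63.6 and 72.3 and MED1 replicate 2 was 6.56, 19 bp from SMC1A. The remaining 3, chr17:74275316-74275979, chr1:181111192-181112461 and chr16:85854922-85856213, had SMC1A of 55.4 to 64.0 and MED1 replicate 2 of 6.07 to 8.83. In all 5 the MED1 summit was at most 35 bp from that of SMC1A replicate 2, and that of NIPBL replicate 1 was 88 to 157 bp from it. These 5 were picked by SMC1A strength and are a description.

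The widest members joined several peaks. The first, chr17:70112072-70115532 (3461 bp), held 4 MED1 replicate 2 peaks and 3 SMC1A replicate 1 peaks, with 1 peak of each NIPBL list. The others were chr11:34378371-34381411 (3041 bp) and chr12:104850331-104853365 (3035 bp), with SMC1A of 28.8 and 31.9 and of 10.1 and 11.8. In these 3 the strongest MED1 and SMC1A replicate 2 summits were 951 to 2400 bp apart, so the peaks are neighbours within a merged region.

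On the member side of the threshold, the lowest MED1 replicate 2 −log10 q was 1.59, at chr2:14794813-14795471 (fold enrichment 2.38). It was 2.01 at chr2:99055209-99055624 and 2.02 at chr7:76965546-76965897. Just outside lay regions whose MED1 replicate 1 peak barely passed, with a −log10 q of 1.42 at chr3:4516178-4517136, chr3:66522753-66523511 and chr6:45797951-45798837. Their MED1 replicate 2 fold enrichments were 7.22, 4.35 and 5.00, which fall within the range of the members. In all, 193 of 7480 regions with MED1 in both had a replicate 1 −log10 q under 3, whereas 4 had one under 3 in replicate 2.

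Members were rarely the edge of a MED1 replicate 1 peak. The nearest such peak was a median of 23992 bp away (quartiles 5621 and 94820), and lay within 1 kb of 210 members (7.65%) and within 100 kb of 2074 (75.6%). For the 698 regions with both NIPBL lists and no MED1 peak these shares were 2.58% and 75.2%, with a median of 34854 bp. The share within 100 kb was thus much the same in both classes. Members with SMC1A in both replicates lay nearest, at a median of 16225 bp, and members with no SMC1A farthest, at 55416 bp. A region with NIPBL and MED1 in both replicates lay within 100 kb of 64.1% of members, and of 77.3% and 45.5% of those with SMC1A in both and in neither. Leaving out the members within 1 kb of a MED1 replicate 1 peak left 2534, of which 45.5% held SMC1A in both replicates.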

How the data were processed

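ChIP-seq peak lists of NIPBL, SMC1A and MED1 (2 replicates each) were analysed. Per the submitters' processing notes the authors used Trimmomatic 0.33, BWA 0.7.12, MACS2 2.1.0 and hg19, and no label states their settings. Each ChIP library had its own peak calling, with both whole cell extracts pooled as control, per the labels. Fold enrichment was deposited as a linear ratio at the summit, the deposited −log10 p and −log10 q give its evidence, and the deposited summit offset in bp is another kind of value. The deposited score column was not used.

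Peaks on chromosomes 1 to 22 and X were merged where they overlapped by at least 1 bp, and a region took the highest peak of each list. Other sequences were left out (12 to 58 peaks a list). Pileup and control estimate were solved from fold enrichment and −log10 p, in at least 99.7% of peaks a list, and the lowest control estimate gave relative depth. Shares have exact Clopper-Pearson 95% intervals (counting error only). SMC1A differences between classes were compared by a two-sided exact sign-flip permutation test over the 2 SMC1A libraries. Weighting used 10 classes of about equal number. Classes and solving were tested on simulated data. Named regions were the strongest in NIPBL (6 with SMC1A in both replicates, 6 without), in MED1 replicate 2 (5) and SMC1A (5), the 3 widest and the 3 nearest the threshold on each side; runs of neighbouring members are not reported. Alternatives changed thresholds, overlap, region definition, summit distance and libraries. The members and lists were chosen with earlier results of these data known. Python 3.11.15, pandas 2.3.3, numpy 2.4.6 and scipy 1.17.1 were used.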

Additional observations from a re-analysis of the deposited data

How the results depend on the processing

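The number of members, 2744, was 1133 with MED1 replicate 2 cut to the length of replicate 1 and 954 with every list cut to the shortest. Leaving out 1 NIPBL or SMC1A library gave 2752 to 6136, the highest without NIPBL replicate 2. The share with SMC1A in both replicates, 45.5%, was 48.4% and 10.5% under those 2 cuts, 43.5% with an overlap of at least 50% of the shorter peak and 42.8% with summits within 200 bp of a NIPBL summit. It ran from 36.0% to 66.1% with 1 library left out, where leaving out an SMC1A library asks for 1 list only. The difference in SMC1A coverage kept its direction in 12 of 13 alternatives and turned to 4.07 points with every list cut to the shortest; with 1 library left out it ran from -26.9 to -20.6. The difference in median SMC1A fold enrichment, 0.210, turned to -0.18 with MED1 replicate 2 cut and to -0.60 with −log10 p as the measure, was 3.28 with every list cut (positive in both libraries), and ran from -0.20 to 0.65 with 1 library left out. The difference in the share with an SMC1A peak in the strongest 20%, 10.7 points, was positive in all 15 alternatives, all chosen after seeing the data: 5.38 with MED1 replicate 2 cut, 4.09 with every list cut, 11.3 with summits within 200 bp, 10.2 and 13.4 with the other class weighted by MED1 strength and width, 7.84 and 7.36 for the strongest 10% and 50%, and 6.47 to 11.2 with 1 library left out. The causes were not tested. Absence of MED1 replicate 1 means that no peak was called in that list, not that the protein was absent. No paired analysis was possible because the replicate numbers are shared between proteins, and no test compares the libraries of different proteins; the SMC1A differences are already taken within each library.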

Other observations

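Members were spread over all chromosomes used. They made up 18.1% of the regions with both NIPBL lists on chromosome 17 (81 of 447) and 29.0% on chromosome 13 (74 of 255, exact 95% interval 23.5 to 35.0), the lowest and highest shares. The share of members with SMC1A in both replicates ran from 37.0% on chromosome 20 to 61.1% on chromosome 21, where it rested on 36 members.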
